A study of Homo sapiens with 6 samples.

Results

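The proteasome genes described here are 43 listed subunits, activators and helpers of the 26S proteasome, measured in human liver cancer cells labelled Huh7 after 24 h with the kinase inhibitor sorafenib or with its solvent DMSO. A gene entered through the symbol that the platform annotation gives its probes. Of the 43 genes, 39 had a named probe, and PSMA7, PSMC5, PSMD7 and PSMD13 had none. All 39 passed the filter on dim probes in both deposited sets of values, as 39 of the 10523 genes kept in the signals and of the 10595 genes kept in the value table. PSMB9 passed it in the value table mainly through its sorafenib columns, with 1 of 3 DMSO columns above the filter level. Huh7 is an established line of hepatocellular carcinoma, and sorafenib is an oral inhibitor of RAF kinases and of several growth factor receptors. Both groups held 3 samples, with DMSO alone or with sorafenib at a labelled 3 mM, a unit that the sources used here do not settle. Nothing in the labels states that replicates came from separate cultures; p-values therefore reflect the scatter among these samples alone, and that scatter may be technical.

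The proteasome degrades proteins tagged with ubiquitin. Its 20S core is a barrel of alpha rings, which gate the entrance, and beta rings, which cut the substrate. The 19S cap recognises, deubiquitinates, unfolds and threads the substrate into the core, using a ring of ATPases (PSMC genes) and a set of non-ATPase subunits (PSMD genes and ADRM1). Interferon replaces the cutting subunits PSMB5, PSMB6 and PSMB7 with the inducible PSMB8, PSMB9 and PSMB10, and the core is then called the immunoproteasome; it favours peptides that MHC class I molecules present. The activators PSME1 and PSME2 (together PA28 alpha and beta), PSME3 (PA28 gamma) and PSME4 (PA200) are alternative caps, and POMP is a chaperone that matures the core.

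Each sample had an unnormalized array signal and a column in a separate, already normalized table; the first set is named the signal arrays and the second the value-table arrays. Over probes, columns of the same sample in the 2 sets had Spearman correlations of 0.848 to 0.863, within the 0.846 to 0.863 of different samples across the sets, while arrays within a set correlated at 0.923 to 0.942. Each set was therefore tested on its own, and which of them came from Huh7 cells, or whether they share cultures, was not settled. All levels below are normalized log2 levels of 1 probe per gene, and changes are sorafenib minus DMSO on that log2 scale. Hepatocyte markers were present in both sets, with 7 of 8 listed genes kept and HNF4A without a named probe, and their summed linear level was 143094 to 168453 with DMSO and 151116 to 174295 with sorafenib on the signal arrays, and 93330 to 109616 and 92272 to 106863 on the value-table arrays. On the signal arrays 2 of the 7 rose (APOA1 and SERPINA1) and 2 fell (APOB and AFP), and 1 fell on the value-table arrays. FGB lay near the detection level on the signal arrays, at 6.02 to 7.02, and at 14.33 to 14.55 in the separately normalized value table. TTR stood at 7.97 to 8.50 on the signal arrays and at 12.66 to 12.90 in the value table. AFP was alike in the sets, with DMSO means of 14.55 and 14.66. The part of these markers in the results was not tested. Of 10 immune, endothelial and stromal markers, PTPRC, CD3E, VWF, COL1A1 and DCN were detected on no signal array. None of them exceeded the filter level in any value-table column. ACTA2 was detected on 6 signal arrays and exceeded that level in 0 columns. PECAM1 was detected on 0 signal arrays and exceeded it in 6 columns, while CD68 did so in 6 of each. Precision is limited by having 3 arrays in each group.

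With sorafenib, inducible proteasome genes rose and constitutive subunits fell where they passed the test, mostly by small amounts. The inducible PSMB8 and the activator PSME1 were higher in both sets, the inducible PSMB9 was higher on the signal arrays, and 9 genes were lower in both: PSMA5, the ATPases PSMC1 and PSMC3, the cap subunits PSMD1, PSMD2, PSMD12, PSMD14 and ADRM1, and the nuclear activator PSME3. The PSME1 call rested on single arrays in both sets, as did some of the falls, and a dimmer PSME1 probe passed in neither. On the signal arrays 3 of 39 genes rose and 11 fell, where 16.8% of all genes tested rose and 14.2% fell by the same limma test at an adjusted p of 0.05. On the value-table arrays 4 rose and 18 fell (3 and 18 with the filter level required in all 6 columns, where PSMB9 was not tested), where 11.3% of all genes rose and 8.17% fell. The median change of the 39 genes was -0.13 on the signal arrays and -0.22 on the value-table arrays, against -0.0010 and 0.0077 over all genes tested. By the probe that stands for it, no gene passed in opposite directions in the 2 sets, although a dimmer PSMD4 probe did. By the same probes 24 passed in at least 1 set and 15 in neither. The matching share over all genes was not counted, so these 2 numbers are a tally only. Of the 9560 genes kept in both sets, 1548 rose and 1380 fell on the signal arrays. On the value-table arrays 1032 of them rose and 793 fell.

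Of the genes that fell, the 9 shared ones were 81.8% of those on the signal arrays and 50% of those on the value-table arrays. Over all genes kept in both sets the shares were 29.3% and 50.9%. The replicate numbers of the groups went together (the check is given with the processing), and with the replicate number as a block 6 of the 39 genes rose and 17 fell on the signal arrays, where 22.4% of all genes rose and 21.5% fell. The genes added by the block were PSMB10, PSME2 and PSMD5 (adjusted p = 0.0499) upward and PSMA3, PSMB1, PSMB3, PSMC2, PSMD6 and PSMD11 downward (adjusted p = 0.0366, 0.0190, 0.0152, 0.0187, 0.0417 and 0.0445). On the value-table arrays the block added PSMA2, PSMA4, PSMD6 and PSMD8 downward (adjusted p = 0.0187, 0.0394, 0.0210 and 0.0424). Counts depended on single arrays. The 11 falls on the signal arrays became 6 without DMSO replicate 2, and 7 without any 1 of DMSO replicate 1, sorafenib replicate 1 and sorafenib replicate 3. Falls over all kept probes there also dropped, from 2169 to 1262, 1740, 1668 and 1598 in the same order. The 18 falls on the value-table arrays became 7 without sorafenib replicate 1, 8 when DMSO replicate 3 was left out and 10 when sorafenib replicate 2 was. Over all kept probes the value-table falls went from 1483 to 749, 840 and 760 in the same order. The 4 rises there became 1 without DMSO replicate 1 and also without sorafenib replicate 2. They became 2 without DMSO replicate 2, sorafenib replicate 1 or sorafenib replicate 3. Value-table rises over all kept probes went from 1555 to 883 without DMSO replicate 1 and 897 without sorafenib replicate 2. They numbered 1192, 811 and 1077 without DMSO replicate 2, sorafenib replicate 1 and sorafenib replicate 3.

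**Figure D1:**
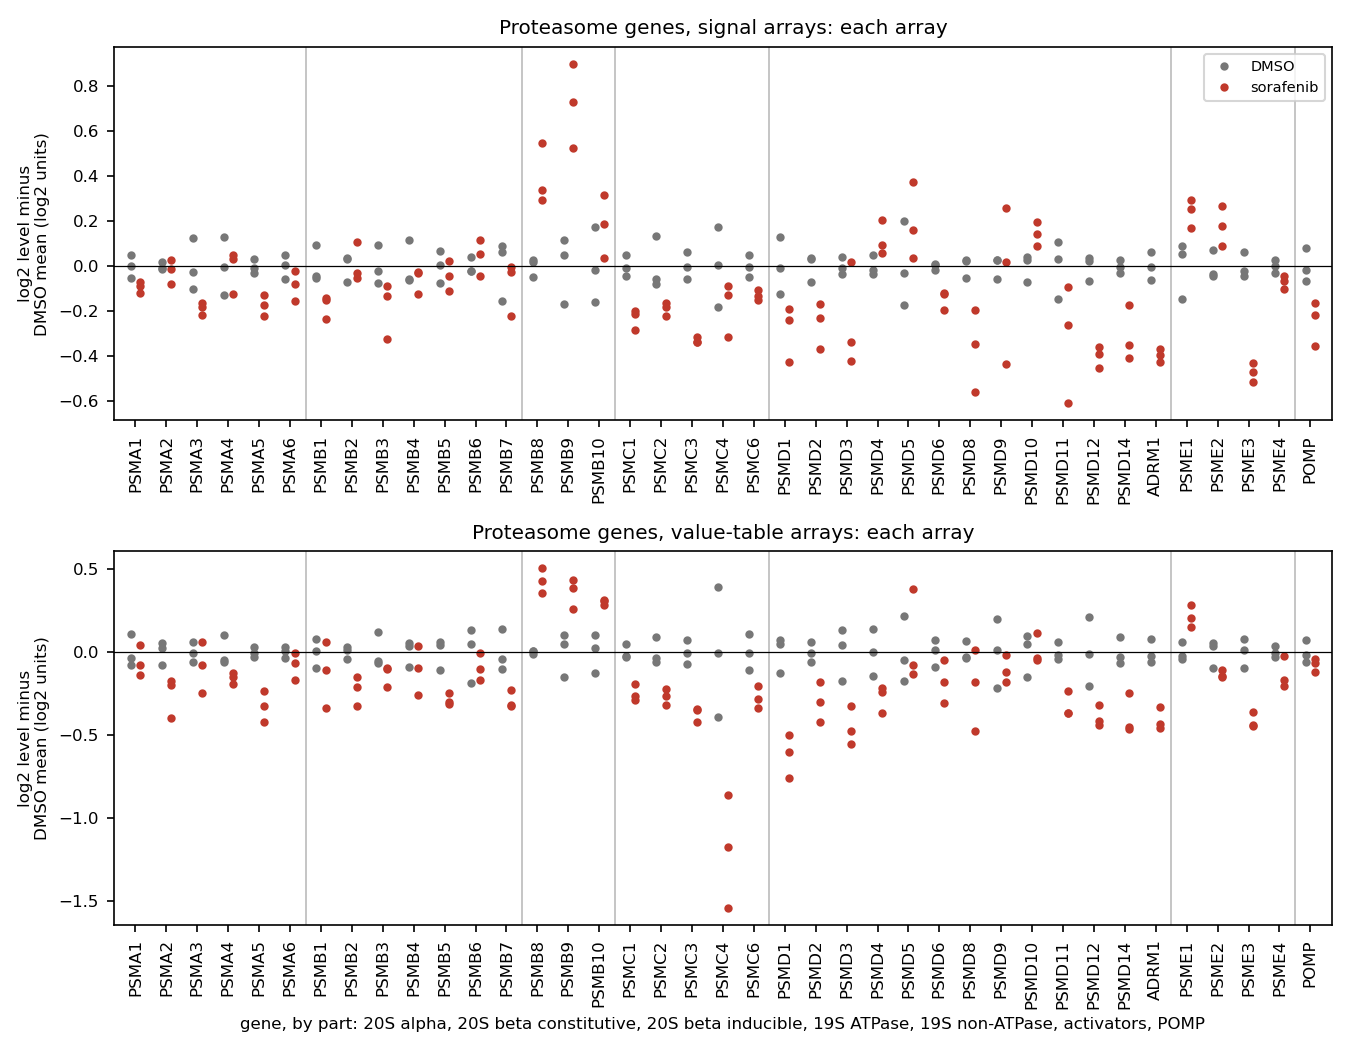
Normalized log2 level of each of the 39 proteasome genes on every array, minus the gene's DMSO mean (y axis, log2 units), with the signal arrays at the top and the value-table arrays at the bottom; grey points are the 3 DMSO arrays, red points the 3 sorafenib arrays, and vertical lines separate the parts of the proteasome. The sorafenib points of PSMB8 and PSMB9 lie above all DMSO points in both panels, those of the ATPases PSMC1 and PSMC3 lie below, and PSMC4 is the lowest gene in the bottom panel, with a change of -1.19.

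The parts of the proteasome differed in how many of their genes passed, although differences between parts were not tested, because genes of 1 array are not replicates. Among the 18 measured 19S genes, assembly chaperones included, 8 fell on the signal arrays and 13 on the value-table arrays, and none rose in either set by the probe that stands for it. Dimmer probes of PSMD4 and PSMD10 did rise on the signal arrays (adjusted p = 0.0362 and 0.0164). With the replicate block, PSMD5 passed upward there (adjusted p = 0.0499). Among the 6 alpha genes, 1 fell in each set. Of the 7 constitutive beta genes, none passed on the signal arrays and 3 fell on the value-table arrays. Of the 3 inducible beta genes, 2 rose on the signal arrays and 3 on the value-table arrays, the latter with PSMB9, which was mostly at or under the filter level with DMSO. Of all genes tested, 16.8% rose and 14.2% fell on the signal arrays, and 11.3% rose and 8.17% fell on the value-table arrays. Median changes on the signal arrays were -0.09 for the alpha genes, -0.06 for the constitutive beta genes, 0.39 for the inducible beta genes, -0.19 for the ATPases and -0.26 for the non-ATPase genes. The value-table medians, in the same order, were -0.12, -0.13, 0.36, -0.27 and -0.30. The 0.36 is the change of PSMB9 itself, whose size there is uncertain. PSMB8 and PSMB10 had value-table changes of 0.43 and 0.30.

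**Figure D2:**
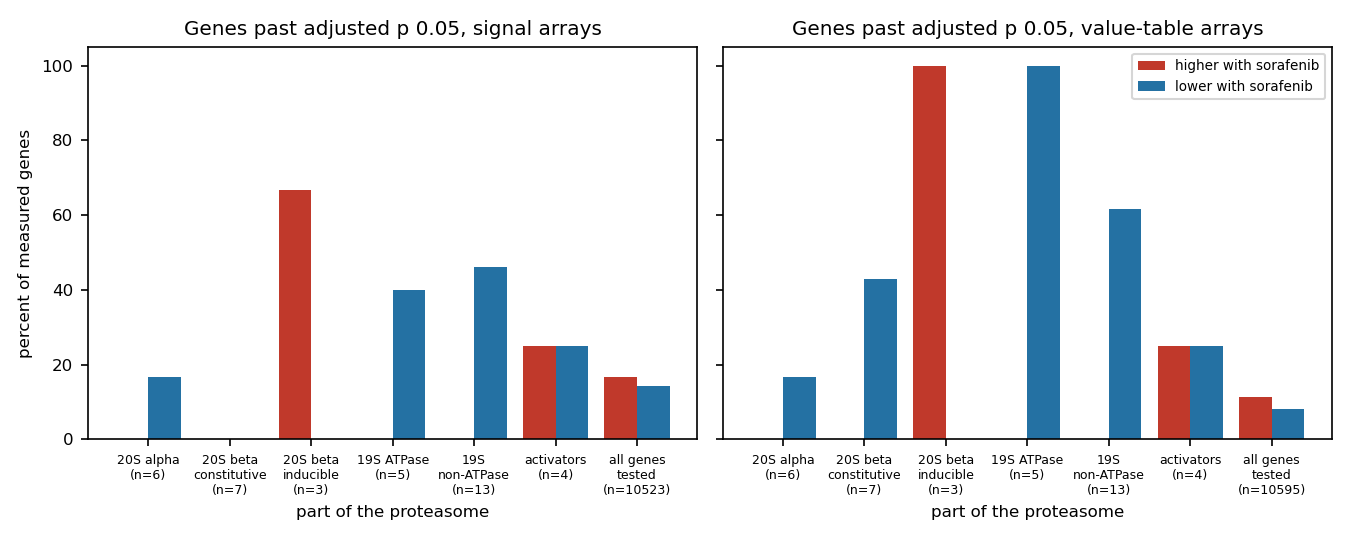
Share of measured genes (y axis, percent) past an adjusted p of 0.05 in each part of the proteasome and over all genes tested, for the signal arrays (left) and the value-table arrays (right); red bars are genes higher and blue bars genes lower with sorafenib, and n is the number of genes measured. Inducible beta genes have only red bars and the 19S parts only blue bars in both sets. The right-hand red bar of the inducible genes counts PSMB9, which passed the filter there mainly through its sorafenib columns. The bars count the probe that stands for each gene, without the replicate block.

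Of the inducible catalytic subunits, PSMB8 rose in both sets, PSMB9 rose on the signal arrays with a rise of uncertain size in the value table, and PSMB10 passed in 1 set. PSMB8 (probe ILMN_2390299), which replaces the chymotrypsin-like subunit PSMB5, stood on the signal arrays at 9.99, 10.06 and 10.07 with DMSO and at 10.33, 10.59 and 10.38 with sorafenib. All sorafenib arrays lay above all DMSO arrays (log2 change 0.39, SE 0.09, adjusted p = 0.00848, 1.31-fold). PSMB8 stood on the value-table arrays at 8.66, 8.64 and 8.67 with DMSO and at 9.09, 9.01 and 9.16 with sorafenib (log2 change 0.43, SE 0.08, adjusted p = 0.00756). Its groups did not overlap there either, as held upward for 24.6% of all genes on the signal arrays and 21.7% on the value-table arrays. PSMB8 had 2 other kept probes. Their differences were 0.44 (adjusted p = 0.00825) and 0.42 (adjusted p = 0.0543) on the signal arrays, and on the value-table arrays 0.33 (adjusted p = 0.0198) and -0.03 (adjusted p = 0.841), so 1 dimmer probe did not follow the others there. Averaging its probes, PSMB8 had a value-table change of 0.24 (adjusted p = 0.0486).

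PSMB9 (probe ILMN_2376108), which replaces the caspase-like subunit PSMB6, had the largest rise among the 39 genes on the signal arrays. It stood at 7.81, 8.02 and 8.09 with DMSO and at 8.50, 8.70 and 8.87 with sorafenib (log2 change 0.72, SE 0.13, adjusted p = 0.00336, 1.64-fold). Its value-table levels stood at 7.38, 7.18 and 7.43 with DMSO and at 7.59, 7.76 and 7.72 with sorafenib (log2 change 0.36, SE 0.09, adjusted p = 0.0277). Only 1 of 3 DMSO columns there exceeded the filter level of 7.40, so the probe entered the test through its sorafenib columns and the size of that rise is uncertain. On the value-table arrays the test was no longer passed by PSMB9 with DMSO replicate 1 or 2, or sorafenib replicate 2 or 3 left out (adjusted p = 0.0591 to 0.0944).

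PSMB10 (probe ILMN_1683026), which replaces the trypsin-like subunit PSMB7, passed on the value-table arrays and not on the signal arrays. It stood there at 11.93, 11.79 and 12.01 with DMSO and at 12.19, 12.22 and 12.22 with sorafenib (log2 change 0.30, SE 0.07, adjusted p = 0.0197). Its signal levels stood at 12.48, 12.34 and 12.67 with DMSO and at 12.53, 12.68 and 12.81 with sorafenib, where DMSO replicate 3 lay within the sorafenib range (log2 change 0.18, SE 0.10, adjusted p = 0.193). With the replicate block its adjusted p on the signal arrays was 0.0393. The value-table call was lost for PSMB10 with DMSO replicate 1, or sorafenib replicate 1 or 2 left out (adjusted p = 0.0501 to 0.0649). The difference between the sets was not tested.

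The constitutive counterparts did not rise in either set. PSMB5 had a change of -0.04 on the signal arrays (adjusted p = 0.637) and fell on the value-table arrays, where it stood at 14.08, 13.93 and 14.10 with DMSO and at 13.72, 13.79 and 13.73 with sorafenib (log2 change -0.29, SE 0.06, adjusted p = 0.0139). PSMB7 had a change of -0.08 on the signal arrays (adjusted p = 0.506) and on the value-table arrays stood at 13.52, 13.46 and 13.70 with DMSO and at 13.24, 13.24 and 13.33 with sorafenib (log2 change -0.29, SE 0.07, adjusted p = 0.0236). PSMB6 had differences of 0.04 and -0.09 in the 2 sets (adjusted p = 0.630 and 0.513). The value-table calls were lost for PSMB5 with DMSO replicate 1, or sorafenib replicate 1 left out (adjusted p = 0.0506 to 0.0533) and PSMB7 with DMSO replicate 1 or 3, or sorafenib replicate 1 or 2 left out (adjusted p = 0.0526 to 0.0818).

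The activator PSME1, an alpha subunit of the PA28 cap that interferon also induces, rose slightly in both sets. It stood at 13.33, 13.56 and 13.53 with DMSO and at 13.64, 13.72 and 13.76 with sorafenib on the signal arrays (log2 change 0.24, SE 0.07, adjusted p = 0.0354). Its level in the value table stood at 13.06, 13.08 and 13.16 with DMSO and at 13.31, 13.25 and 13.39 with sorafenib (log2 change 0.22, SE 0.06, adjusted p = 0.0372). The groups did not overlap in either set, but the call was fragile. This call was lost on the signal arrays for PSME1 with DMSO replicate 1, or sorafenib replicate 2 or 3 left out (adjusted p = 0.0944 to 0.105), and on the value-table arrays without any 1 of the 6 arrays (adjusted p = 0.0511 to 0.111). A dimmer probe of PSME1 passed in neither set, with differences of 0.28 on the signal arrays and 0.12 on the value-table arrays (adjusted p = 0.0755 and 0.336). Its partner PSME2 stood above DMSO on all sorafenib signal arrays, at 12.51, 12.50 and 12.61 with DMSO and at 12.63, 12.72 and 12.81 with sorafenib (log2 change 0.18, SE 0.07, adjusted p = 0.0733, and 0.0182 with the replicate block). It stood below DMSO on all sorafenib value-table arrays, at 12.48, 12.35 and 12.50 with DMSO and at 12.30, 12.34 and 12.29 with sorafenib (log2 change -0.13, SE 0.06, adjusted p = 0.177).

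Promoter sequence of the inducible beta genes, PSME1, PSME2 and TAP1 is shown because their transcription is known to respond to interferon. Of the 9 genes lowered in both sets, only the 2 that hold a motif of the antioxidant family are printed, ADRM1 and PSMD12. Their share, 22.2%, was not above the 26.3% of all members with a window, so the motif does not mark the lowered genes. Each line gives the 250 bases before the annotated start in the RefSeq table of build GRCh38.p14, 5′ to 3′ on the gene's strand, in lower case. Capitals mark an interferon response core, GAAA and GAAA with any 2 bases between them, and an antioxidant response core, TGAC and GC with any 3 bases between them, both searched on both strands. PSMB8 (chr6:32844680-32844929, minus strand) held neither, and PSMB9 (chr6:32853942-32854191, plus strand) held 1 antioxidant core. TAP1 (chr6:32853705-32853954, minus strand), the divergent neighbour of PSMB9, shares the outermost bases of that window and held 2 overlapping interferon cores. The remaining windows were those of PSMB10 (chr16:67936851-67937100, minus strand), PSME1 (chr14:24135944-24136193, plus strand), PSME2 (chr14:24146611-24146860, minus strand), ADRM1 (chr20:62302646-62302895, plus strand) and PSMD12 (chr17:67366578-67366827, minus strand).
PSMB8: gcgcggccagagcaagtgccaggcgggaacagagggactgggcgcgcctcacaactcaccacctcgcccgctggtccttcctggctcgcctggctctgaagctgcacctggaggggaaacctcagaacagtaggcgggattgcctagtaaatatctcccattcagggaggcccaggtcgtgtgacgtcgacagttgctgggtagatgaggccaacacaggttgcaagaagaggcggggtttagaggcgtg
PSMB9: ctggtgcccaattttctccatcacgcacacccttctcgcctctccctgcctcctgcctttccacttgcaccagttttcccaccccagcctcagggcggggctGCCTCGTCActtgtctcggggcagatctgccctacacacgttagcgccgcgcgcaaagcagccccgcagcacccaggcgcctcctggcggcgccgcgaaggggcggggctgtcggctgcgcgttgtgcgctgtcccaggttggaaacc
TAP1: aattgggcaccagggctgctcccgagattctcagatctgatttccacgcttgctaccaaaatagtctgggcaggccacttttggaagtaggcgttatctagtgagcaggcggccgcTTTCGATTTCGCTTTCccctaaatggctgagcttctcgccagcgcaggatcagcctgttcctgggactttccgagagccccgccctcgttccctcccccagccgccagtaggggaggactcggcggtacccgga
PSMB10: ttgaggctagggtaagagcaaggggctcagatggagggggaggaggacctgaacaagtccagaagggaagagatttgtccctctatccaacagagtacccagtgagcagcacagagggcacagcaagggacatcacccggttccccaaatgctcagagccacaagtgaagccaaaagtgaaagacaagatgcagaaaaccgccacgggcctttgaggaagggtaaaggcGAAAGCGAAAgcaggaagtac
PSME1: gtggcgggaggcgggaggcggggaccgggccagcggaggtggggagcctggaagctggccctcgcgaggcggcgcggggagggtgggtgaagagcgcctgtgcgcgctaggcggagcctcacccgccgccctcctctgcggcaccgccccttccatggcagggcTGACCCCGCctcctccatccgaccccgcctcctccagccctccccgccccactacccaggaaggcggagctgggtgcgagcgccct
PSME2: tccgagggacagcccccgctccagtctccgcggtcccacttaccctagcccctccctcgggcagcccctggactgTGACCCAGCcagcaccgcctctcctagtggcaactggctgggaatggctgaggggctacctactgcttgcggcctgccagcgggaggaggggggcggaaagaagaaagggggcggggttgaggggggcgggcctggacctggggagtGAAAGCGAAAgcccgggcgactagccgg
ADRM1: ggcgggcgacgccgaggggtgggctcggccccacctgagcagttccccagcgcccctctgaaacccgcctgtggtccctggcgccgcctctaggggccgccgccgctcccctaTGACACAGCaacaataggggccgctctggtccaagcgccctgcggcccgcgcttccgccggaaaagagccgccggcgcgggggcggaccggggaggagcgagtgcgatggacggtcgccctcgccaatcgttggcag
PSMD12: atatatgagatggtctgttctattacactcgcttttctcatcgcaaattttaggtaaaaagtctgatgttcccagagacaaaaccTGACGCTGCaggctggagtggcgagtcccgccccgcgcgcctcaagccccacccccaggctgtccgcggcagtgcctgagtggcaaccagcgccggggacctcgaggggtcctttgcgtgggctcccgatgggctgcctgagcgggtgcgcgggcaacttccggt

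Of the 43 genes, 38 matched a window in that table. The interferon core was found in 4 of the 38, namely PSMA4, PSMB4, PSMB10 and PSME2, and in 3.07% of all 27305 windows. The antioxidant core was found in 10 of the 38 (26.3%) and in 11.0% of all windows. It was present in 2 of the 9 genes that fell in both sets (22.2%) and in PSMB9 and PSME1, but not in PSMB8. By the probes that stand for them, PSMA4 and PSMB4 passed in neither set without the replicate block. On the value-table arrays a dimmer PSMA4 probe fell (adjusted p = 0.0200), and PSMA4 passed downward with the block (adjusted p = 0.0394). A match is a run of letters in this window and not a measured site.

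Genes of the MHC class I pathway were given beside the inducible subunits, because the immunoproteasome supplies its peptides. PSMB8 and PSMB9 lie in 1 cluster of chromosome 6 with the genes of the peptide transporter, in the order TAP2, PSMB8, TAP1, PSMB9. Of 7 measured class I genes, 4 rose and 1 fell on the signal arrays, where 16.8% and 14.2% of all genes did. Of these, 1 rose and none fell on the value-table arrays, where 11.3% and 8.17% of all genes did. With the replicate block there, 3 rose and 1 fell, where 19.1% and 15.5% of all genes did. The chaperone of the peptide-loading complex, TAPBP, stood at 10.78, 10.83 and 10.74 with DMSO and at 11.32, 11.53 and 11.23 with sorafenib on the signal arrays (log2 change 0.58, SE 0.08, adjusted p = 0.00119). Averaging its probes, that change was 0.34 (adjusted p = 0.0216). The transcription factor IRF1 stood at 8.04, 8.25 and 8.11 with DMSO and at 8.57, 8.66 and 8.50 with sorafenib (log2 change 0.44, SE 0.11, adjusted p = 0.0126). Both groups were separate for each gene. In the value table TAPBP had a difference of 0.24 (adjusted p = 0.102, 0.0259 with the replicate block) and IRF1 one of 0.06 (adjusted p = 0.651).

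The neighbours TAP1 and TAP2 passed in opposite directions on the signal arrays. TAP2 stood at 8.81, 9.06 and 9.15 with DMSO and at 8.66, 8.54 and 8.66 with sorafenib on the signal arrays (log2 change -0.39, SE 0.11, adjusted p = 0.0290), with all sorafenib arrays below DMSO. Its level in the value table stood at 8.02, 8.19 and 8.20 with DMSO and at 7.83, 7.92 and 7.86 with sorafenib (log2 change -0.27, SE 0.08, adjusted p = 0.0531, and 0.0189 with the replicate block). TAP1 rose on the signal arrays (log2 change 0.34, SE 0.07, adjusted p = 0.00663) and had a difference of 0.29 on the value-table arrays (adjusted p = 0.0983, 0.00722 with the replicate block). B2M, the invariant light chain of class I molecules, stood at 13.11, 13.01 and 13.23 with DMSO and at 13.36, 13.31 and 13.45 with sorafenib on the value-table arrays (log2 change 0.26, SE 0.07, adjusted p = 0.0330), and on the signal arrays it had a difference of 0.30 (adjusted p = 0.0127). Signal calls were lost for IRF1 with sorafenib replicate 2 left out (adjusted p = 0.0560) and TAP2 with DMSO replicate 2 or 3, or sorafenib replicate 1, 2 or 3 left out (adjusted p = 0.0526 to 0.104), and the value-table call for B2M with DMSO replicate 1 or 2, or sorafenib replicate 1, 2 or 3 left out (adjusted p = 0.0570 to 0.0928). NLRC5, a regulator of class I genes, and the leukocyte markers PTPRC and CD3E were detected on no signal array. They exceeded the filter level in no value-table column. ACTA2, a stromal marker, rose on the signal arrays (log2 change 0.65, SE 0.06, adjusted p = 0.000129). PDGFRB, another, was detected on all 3 DMSO and on no sorafenib signal array, so it had no measured level with sorafenib to compare. The summed linear level of the 3 kept markers of that list was 8848 to 9175 with DMSO and 12434 to 14454 with sorafenib there, and its part in these results was not tested. That sum mostly follows ACTA2, at 12.93 to 13.69, and includes the undetected PDGFRB values. CD68 stood at 9.91 to 10.26 and did not pass (log2 change 0.01, adjusted p = 0.946). Among the value-table arrays, 2 genes of the list were kept, neither passed, and their sum was 1972 to 2185 with DMSO and 1789 to 1874 with sorafenib.

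**Figure D3:**
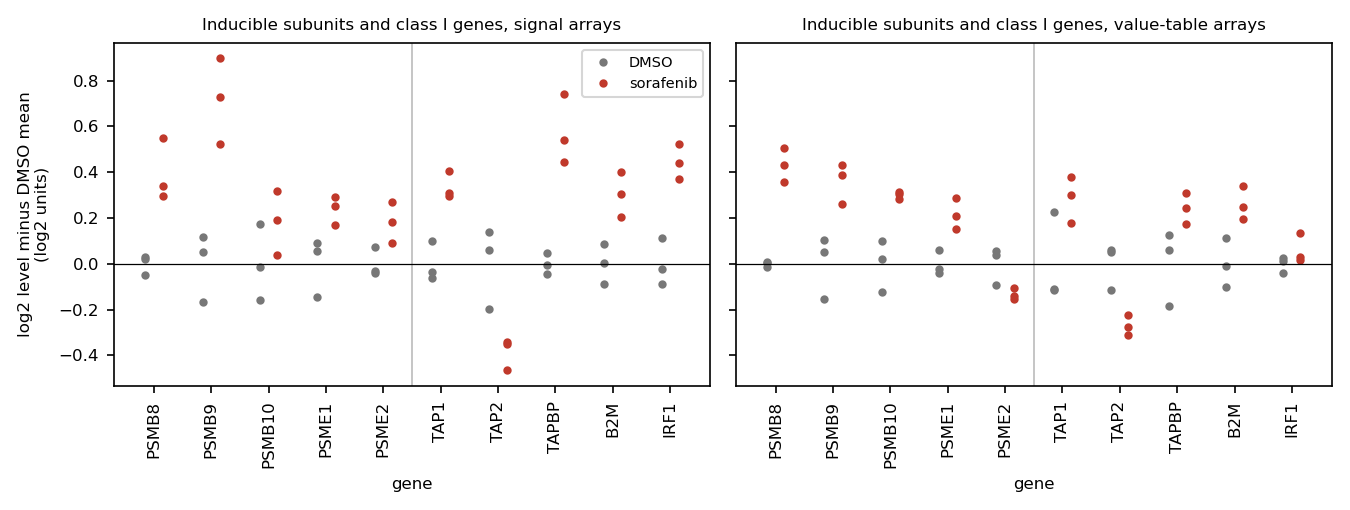
Normalized log2 level on every array minus the gene's DMSO mean (y axis, log2 units) for the inducible subunits and PA28 activators (left of the line) and class I genes (right of the line), with one panel per set; grey points are DMSO arrays, red points sorafenib arrays. PSMB8 and PSMB9 lie above DMSO in both panels and TAP2 below, while PSME2 lies above DMSO on the left and below it on the right.

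The alpha and the constitutive beta genes had smaller median changes than the 19S genes in both sets. PSMA5, an alpha subunit, stood at 13.91, 13.97 and 13.93 with DMSO and at 13.76, 13.81 and 13.72 with sorafenib on the signal arrays (log2 change -0.17, SE 0.05, adjusted p = 0.0359). Its level in the value table stood at 13.76, 13.70 and 13.72 with DMSO and at 13.31, 13.40 and 13.49 with sorafenib (log2 change -0.33, SE 0.06, adjusted p = 0.00888). All sorafenib arrays lay below all DMSO arrays in both sets, as did 22.8% and 18.1% of all genes. The signal call was lost without any 1 of the 6 arrays (adjusted p = 0.0517 to 0.119). The other 5 alpha genes passed in neither set by the probe that stands for them, with changes from -0.19 to -0.01 on the signal arrays. A dimmer probe of PSMA1 did pass in both sets, at -0.32 (adjusted p = 0.0385) and -0.33 (adjusted p = 0.0226), and a dimmer probe of PSMA4 on the value-table arrays, at -0.38 (adjusted p = 0.0200). Of the remaining constitutive beta genes, PSMB2 fell on the value-table arrays (log2 change -0.23, SE 0.06, adjusted p = 0.0308), a call lost for PSMB2 with DMSO replicate 1, 2 or 3, or sorafenib replicate 1 or 2 left out (adjusted p = 0.0573 to 0.103), and PSMB1, PSMB3 and PSMB4 passed in neither set.

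The 19S ATPases, which unfold the substrate and push it into the core, fell where they passed. All 5 measured ATPases had negative differences in both sets, as did 5288 of 10523 genes tested on the signal arrays and 5132 of 10595 on the value-table arrays. Past the threshold were 2 of the ATPases on the signal arrays and 5 on the value-table arrays, where 14.2% and 8.17% of all genes fell. PSMC3 (probe ILMN_1809010) stood at 12.26, 12.19 and 12.14 with DMSO and at 11.86, 11.88 and 11.86 with sorafenib on the signal arrays (log2 change -0.33, SE 0.06, adjusted p = 0.00346, 1.26-fold lower). Its value-table levels stood at 12.60, 12.54 and 12.68 with DMSO and at 12.19, 12.26 and 12.26 with sorafenib (log2 change -0.37, SE 0.06, adjusted p = 0.00549). The sorafenib arrays lay below the DMSO arrays throughout. PSMC1 stood at 13.91, 14.01 and 13.95 with DMSO and at 13.67, 13.74 and 13.76 with sorafenib on the signal arrays (log2 change -0.23, SE 0.05, adjusted p = 0.0120) and had a difference of -0.25 on the value-table arrays (adjusted p = 0.0148). Its second probe fell as well, by 0.34 and 0.46 on the log2 scale (adjusted p = 0.0287 and 0.00248).

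PSMC4 passed in 1 set, and the difference between the sets was not tested. Its value-table levels stood at 12.00, 11.21 and 11.60 with DMSO and at 10.74, 10.43 and 10.06 with sorafenib, the largest change of the 39 genes there (log2 change -1.19, SE 0.21, adjusted p = 0.00607, 2.29-fold lower). The DMSO arrays spread over a wider range than for other ATPases, with an SD of 0.39, but no sorafenib array reached them. All 3 kept probes of PSMC4 fell there, by 1.19, 1.16 and 0.95 on the log2 scale. On the signal arrays it stood at 9.73, 9.92 and 10.09 with DMSO and at 9.60, 9.78 and 9.82 with sorafenib, with overlapping groups (log2 change -0.18, SE 0.11, adjusted p = 0.257), and its other probes had differences of -0.17 and -0.21 (adjusted p = 0.507 and 0.652). PSMC6 stood at 13.20, 13.30 and 13.42 with DMSO and at 12.97, 13.03 and 13.10 with sorafenib on the value-table arrays (log2 change -0.27, SE 0.07, adjusted p = 0.0267) and PSMC2 at 13.81, 13.83 and 13.96 with DMSO and at 13.55, 13.60 and 13.64 with sorafenib (log2 change -0.27, SE 0.06, adjusted p = 0.0166). Their signal changes were -0.13 and -0.19 (adjusted p = 0.114 and 0.0682), and PSMC2 passed there with the replicate block (adjusted p = 0.0187). The test was no longer passed on the signal arrays by PSMC1 with DMSO replicate 2 left out (adjusted p = 0.0544), and on the value-table arrays by PSMC1 with DMSO replicate 3, or sorafenib replicate 1 or 2 left out (adjusted p = 0.0507 to 0.0583), PSMC2 with DMSO replicate 3, or sorafenib replicate 1 or 2 left out (adjusted p = 0.0524 to 0.0653) and PSMC6 with DMSO replicate 2 or 3, or sorafenib replicate 1 or 2 left out (adjusted p = 0.0610 to 0.0954).

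A ubiquitin receptor and both large scaffolds of the 19S cap fell in both sets. ADRM1, a ubiquitin receptor that also docks the deubiquitinase UCHL5 and whose promoter is printed above, stood at 13.41, 13.53 and 13.46 with DMSO and at 13.07, 13.10 and 13.04 with sorafenib on the signal arrays (log2 change -0.40, SE 0.06, adjusted p = 0.00094). Its value-table levels stood at 13.55, 13.52 and 13.65 with DMSO and at 13.11, 13.25 and 13.14 with sorafenib (log2 change -0.41, SE 0.06, adjusted p = 0.00387). Its groups were separate in both sets, and its other probe fell too, by 0.37 and 0.59 on the log2 scale. PSMD1, a large scaffold subunit, stood at 12.76, 12.59 and 12.78 with DMSO and at 11.95, 12.11 and 12.21 with sorafenib on the value-table arrays (log2 change -0.62, SE 0.08, adjusted p = 0.00242, 1.54-fold lower) and had a difference of -0.28 on the signal arrays (adjusted p = 0.0364). The scaffold PSMD2 fell in both sets, by 0.26 and 0.30 on the log2 scale (adjusted p = 0.0245 and 0.0250). The receptor PSMD4 passed in 1 set, with all 3 kept probes falling on the value-table arrays, by 0.27 to 0.46 on the log2 scale, and changes of 0.12 to 0.19 on the signal arrays. There the probe that stands for it did not pass (adjusted p = 0.189), and 1 other did in the upward direction (adjusted p = 0.0362). The test was no longer passed on the signal arrays by PSMD1 with DMSO replicate 1 or 3, or sorafenib replicate 1 or 2 left out (adjusted p = 0.0668 to 0.115) and PSMD2 with DMSO replicate 1 or 2, or sorafenib replicate 1 or 3 left out (adjusted p = 0.0503 to 0.0917), and on the value-table arrays by PSMD2 with DMSO replicate 2 or 3, or sorafenib replicate 1 or 3 left out (adjusted p = 0.0547 to 0.0885) and PSMD4 with DMSO replicate 1 or 3, or sorafenib replicate 1, 2 or 3 left out (adjusted p = 0.0859 to 0.142).

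Genes of the lid, the part of the cap that removes ubiquitin, fell where they passed. PSMD12, a lid scaffold, stood at 12.17, 12.26 and 12.27 with DMSO and at 11.84, 11.87 and 11.78 with sorafenib on the signal arrays (log2 change -0.40, SE 0.06, adjusted p = 0.00154, 1.32-fold lower). Its level in the value table stood at 11.63, 11.81 and 12.04 with DMSO and at 11.41, 11.39 and 11.51 with sorafenib (log2 change -0.39, SE 0.10, adjusted p = 0.0278). PSMD14, the metalloprotease that cuts ubiquitin off the substrate, stood at 12.05, 12.02 and 12.00 with DMSO and at 11.85, 11.67 and 11.62 with sorafenib on the signal arrays (log2 change -0.31, SE 0.07, adjusted p = 0.0127). It had a difference of -0.38 on the value-table arrays (adjusted p = 0.0115). For both genes all sorafenib arrays lay below all DMSO arrays in both sets. PSMD8 stood at 10.32, 10.24 and 10.32 with DMSO and at 10.10, 9.95 and 9.73 with sorafenib on the signal arrays (log2 change -0.37, SE 0.10, adjusted p = 0.0216) and did not pass on the value-table arrays, where it had a difference of -0.22 (adjusted p = 0.218). PSMD3 stood at 9.54, 9.23 and 9.45 with DMSO and at 8.86, 8.93 and 9.08 with sorafenib on the value-table arrays (log2 change -0.45, SE 0.10, adjusted p = 0.0185) and had a difference of -0.25 on the signal arrays (adjusted p = 0.162). PSMD11, a lid subunit that helps activate the complex, had differences of -0.32 and -0.32 and passed on the value-table arrays (adjusted p = 0.129 and 0.0258).

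Lid calls also rested on single arrays. The test was no longer passed on the signal arrays by PSMD14 with sorafenib replicate 2 left out (adjusted p = 0.0536) and PSMD8 with DMSO replicate 1 or 2, or sorafenib replicate 2 or 3 left out (adjusted p = 0.0511 to 0.0593), and on the value-table arrays by PSMD12 with DMSO replicate 2 or 3, or sorafenib replicate 1 or 2 left out (adjusted p = 0.0638 to 0.0884), PSMD3 with DMSO replicate 1 or 3, or sorafenib replicate 1 or 2 left out (adjusted p = 0.0514 to 0.0740) and PSMD11 with DMSO replicate 1 or 3, or sorafenib replicate 1 or 3 left out (adjusted p = 0.0609 to 0.0923). PSMD6, another lid subunit, had differences of -0.15 and -0.18 and passed in neither set by the probe that stands for it (adjusted p = 0.0711 and 0.154). A dimmer probe of PSMD6 fell on the value-table arrays, by 0.30 on the log2 scale (adjusted p = 0.0377). On the signal arrays that probe had a difference of -0.20 (adjusted p = 0.0782). The listed genes PSMD5, PSMD9 and PSMD10 are chaperones that assemble the ATPase ring and leave the finished particle. None of these 3 passed in either set. Their differences on the 2 sets were 0.19 and 0.06 for PSMD5, -0.05 and -0.10 for PSMD9, and 0.14 and 0.01 for PSMD10. A dimmer probe of PSMD10 rose on the signal arrays, by 0.33 on the log2 scale (adjusted p = 0.0164).

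Among the other caps, PSME3, the nuclear activator that works without ubiquitin, fell in both sets. It stood at 11.22, 11.33 and 11.24 with DMSO and at 10.79, 10.83 and 10.75 with sorafenib on the signal arrays (log2 change -0.47, SE 0.07, adjusted p = 0.000942, 1.39-fold lower). Its level in the value table stood at 10.89, 10.96 and 10.79 with DMSO and at 10.44, 10.44 and 10.52 with sorafenib (log2 change -0.41, SE 0.07, adjusted p = 0.00653). All sorafenib arrays were below all DMSO arrays in both sets, and its other kept probe fell by 0.51 and 0.52 on the log2 scale. PSME4, the cap linked to histone breakdown, passed in neither set, with changes of -0.07 and -0.13. POMP stood at 13.11, 13.00 and 12.96 with DMSO and at 12.81, 12.86 and 12.67 with sorafenib on the signal arrays (log2 change -0.24, SE 0.07, adjusted p = 0.0269) and had a difference of -0.07 on the value-table arrays (adjusted p = 0.431). The signal call was lost for POMP with DMSO replicate 1 or 2, or sorafenib replicate 1 or 3 left out (adjusted p = 0.0536 to 0.0810).

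Other analysis settings ended some of these calls, all among genes that also depended on single arrays. PSME1 did not pass on the signal arrays with median scaling, without the filter on dim probes or without the intensity trend (adjusted p = 0.0966, 0.0521 and 0.106), nor on the value-table arrays without the filter, without the trend or with the mean of its probes (adjusted p = 0.0752, 0.0726 and 0.0980). Without the intensity trend, PSMA5, PSMC1, PSMD1, PSMD2 and POMP did not pass on the signal arrays (adjusted p = 0.124, 0.0607, 0.0909, 0.0709 and 0.0841), nor did PSMB2 and PSMD4 on the value-table arrays (adjusted p = 0.0685 and 0.0689). Without the filter, PSMA5 and PSMD1 did not pass on the signal arrays (adjusted p = 0.0921 and 0.0524), nor did PSMD4 on the value-table arrays (adjusted p = 0.0758). With the mean of its probes PSMC6 did not pass on the value-table arrays (adjusted p = 0.0845).

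**Figure D4:**
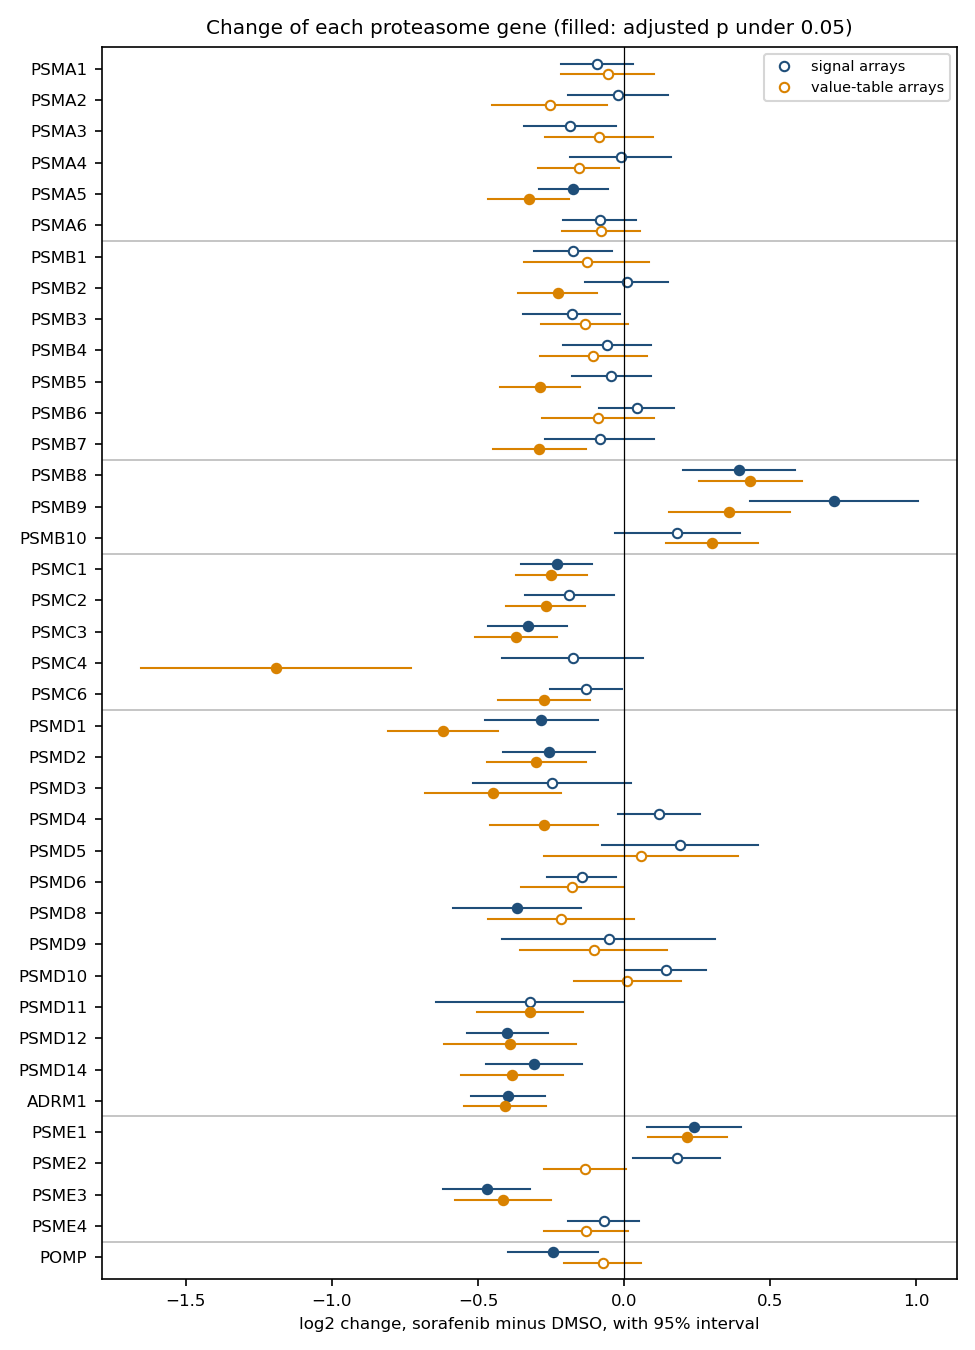
Change of each proteasome gene with sorafenib (x axis, log2 units, sorafenib minus DMSO) with its 95% limma interval on the signal arrays (blue) and the value-table arrays (orange); filled points passed an adjusted p of 0.05 and horizontal lines separate the parts. The filled points right of 0 are PSMB8, PSMB9, PSMB10 and PSME1, and the 19S genes lie mostly left of 0. PSMB9 entered the value-table test mainly through its sorafenib columns.

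Of 8 measured genes for assembly and inhibition, 1 rose and 3 fell on the signal arrays, where 16.8% and 14.2% of all genes did. Of these, 1 rose and none fell on the value-table arrays, where 11.3% and 8.17% of all genes did. PAAF1, which binds the ATPase ring and limits its joining to the core, rose in both sets and stood at 10.97, 11.14 and 11.01 with DMSO and at 11.57, 11.55 and 11.60 with sorafenib on the signal arrays (log2 change 0.53, SE 0.07, adjusted p = 0.000589). It stood at 10.61, 10.61 and 10.60 with DMSO and at 10.94, 11.06 and 10.86 with sorafenib on the value-table arrays (log2 change 0.34, SE 0.07, adjusted p = 0.0136). All sorafenib arrays exceeded all DMSO arrays in both sets. The core chaperones PSMG3 and PSMG4 fell on the signal arrays (changes of -0.37 and -0.30, adjusted p = 0.0389 and 0.0361), and their value-table changes were -0.11 and -0.22 (adjusted p = 0.369 and 0.0730, the latter 0.0233 with the replicate block). The test was no longer passed on the signal arrays by PSMG3 with DMSO replicate 2 or 3, or sorafenib replicate 2 or 3 left out (adjusted p = 0.0649 to 0.141) and PSMG4 with DMSO replicate 2 or 3, or sorafenib replicate 1 or 2 left out (adjusted p = 0.0887 to 0.111), and on the value-table arrays by PAAF1 with sorafenib replicate 2 left out (adjusted p = 0.0539). The third core chaperone that fell on the signal arrays was PSMG1 (log2 change -0.24, SE 0.06, adjusted p = 0.0171), a call lost for PSMG1 with sorafenib replicate 2 or 3 left out (adjusted p = 0.0512 to 0.0559). PSMF1, an inhibitor of the core, was detected on no signal array and exceeded the filter level in no value-table column.

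Genes that deliver substrates to the cap were lower where they passed. Of 12 measured shuttle receptors, deubiquitinases and partners of the unfoldase VCP, 3 fell and none rose in each set, where 14.2% and 8.17% of all genes fell. With the replicate block 5 and 6 fell, where 21.5% and 15.5% of all genes did. UCHL5, the deubiquitinase docked by ADRM1, stood at 11.45, 11.63 and 11.73 with DMSO and at 11.06, 11.12 and 10.98 with sorafenib on the signal arrays (log2 change -0.55, SE 0.08, adjusted p = 0.00138) and had a difference of -0.21 on the value-table arrays (adjusted p = 0.0691, 0.0130 with the replicate block). VCP, which extracts ubiquitinated proteins from membranes and complexes, stood at 12.19, 12.07 and 12.27 with DMSO and at 11.61, 11.63 and 11.75 with sorafenib on the value-table arrays (log2 change -0.51, SE 0.07, adjusted p = 0.00287) and had a difference of -0.21 on the signal arrays (adjusted p = 0.0335). UFD1, a cofactor of VCP, stood at 9.32, 9.23 and 9.27 with DMSO and at 8.69, 8.66 and 8.86 with sorafenib on the value-table arrays (log2 change -0.54, SE 0.09, adjusted p = 0.00432) and had a difference of -0.35 on the signal arrays (adjusted p = 0.0701, 0.0283 with the replicate block). The shuttle receptor UBQLN1 fell in both sets, by 0.26 and 0.20 on the log2 scale, read from different probes (adjusted p = 0.0445 and 0.0485). Signal calls were lost for VCP with DMSO replicate 1, 2 or 3, or sorafenib replicate 1 or 2 left out (adjusted p = 0.0599 to 0.122) and UBQLN1 with DMSO replicate 1 or 2, or sorafenib replicate 1, 2 or 3 left out (adjusted p = 0.0577 to 0.166), and the value-table call of UBQLN1 without any 1 of the 6 arrays (adjusted p = 0.0624 to 0.147). Of the 3 measured genes for ubiquitin and its activating enzymes, UBB, UBA1 and UBA6, none passed in either set, and UBA6 passed downward on the signal arrays with the replicate block (adjusted p = 0.0324). Without the intensity trend, PSMG1, PSMG4, UBQLN1 and VCP did not pass on the signal arrays (adjusted p = 0.0598, 0.0764, 0.102 and 0.0734), nor did UBQLN1 and B2M on the value-table arrays (adjusted p = 0.0736 and 0.0589). Without the filter on dim probes, PSMG3, PSMG4, UBQLN1, VCP and TAP2 did not pass on the signal arrays (adjusted p = 0.0824, 0.0617, 0.0752, 0.0988 and 0.0531), nor did UBQLN1 on the value-table arrays (adjusted p = 0.155). Averaging the probes of each gene, UBQLN1 did not pass on the signal arrays (adjusted p = 0.0834) and TAP2 missed the threshold by less than its rounding.

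The regulators of proteasome genes were measured as well. NFE2L1, a transcription factor that restores proteasome genes when the proteasome is inhibited, stood at 9.46, 9.40 and 9.44 with DMSO and at 9.55, 9.66 and 9.70 with sorafenib on the signal arrays and did not pass (log2 change 0.20, SE 0.08, adjusted p = 0.0934). It had a difference of 0.19 on the value-table arrays (adjusted p = 0.195, 0.0444 with the replicate block). The related NFE2L2, which drives antioxidant genes, fell on the signal arrays, where it stood at 12.54, 12.54 and 12.57 with DMSO and at 12.25, 12.21 and 12.24 with sorafenib (log2 change -0.32, SE 0.05, adjusted p = 0.00277), and had a difference of -0.02 on the value-table arrays (adjusted p = 0.863). MAFF, a small MAF protein that binds DNA together with both factors, stood at 8.01, 7.72 and 7.70 with DMSO and at 6.25, 6.22 and 5.31 with sorafenib on the signal arrays (log2 change -1.88, SE 0.25, adjusted p = 0.000633). It was detected on 2 of 3 sorafenib arrays, close to the detection level of 5.99 to 6.19, so the size is uncertain, and without background correction the change was -0.94 (-1.16 with normexp). MAFF stood on the value-table arrays at 8.93, 8.81 and 8.90 with DMSO and at 8.39, 8.31 and 8.34 with sorafenib (log2 change -0.53, SE 0.08, adjusted p = 0.00328). MAFG, another small MAF protein, fell on the signal arrays (log2 change -0.59, SE 0.14, adjusted p = 0.0128) and did not pass on the value-table arrays (adjusted p = 0.328). Over the 36 measured companion genes of the lists on assembly, delivery, ubiquitin, regulation and class I processing, 5 rose and 10 fell on the signal arrays, where 16.8% and 14.2% of all genes did. Value-table counts were 2 rises and 4 falls, where 11.3% and 8.17% of all genes rose and fell. The 10 falls became 5 without DMSO replicate 2, 6 without sorafenib replicate 1 or 3 and 4 without sorafenib replicate 2. Signal falls over all kept probes went from 2169 to 1262, 1668, 1598 and 1436 in the same order. The 2 value-table rises became 1 without DMSO replicate 1 or sorafenib replicate 1 or 3 and 0 by limma without sorafenib replicate 2. Value-table rises over all kept probes went from 1555 to 883, 811, 1077 and 897 in the same order.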

How the data were processed

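RNA of 3 DMSO and 3 sorafenib samples was measured on Illumina expression beadchips, per the labels' protocols. Sample titles gave the groups and the replicate numbers. The authors deposited unnormalized probe intensity on a linear scale beside detection p-values, per the file headers. The values of the deposited table look like log2 levels; how they were normalized is not given in the sources used here.

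Signals were corrected with limma's neqc (offset 16), which quantile-normalizes, and 17115 of 47323 probes were kept, those detected at 0.01 in 3 or more of 6 arrays. For the value table the filter was a level of 7.40, the detection level of uncorrected signals, exceeded in 3 or more columns (17122 probes). Group differences came from limma 3.58.1, run in R 4.3.3 (intensity trend, two-sided, group only), with Benjamini-Hochberg adjustment over all kept probes at 0.05. The fit was also run on simulated data with independent noise. That noise lacked the shared deviations of replicate numbers given below, so it does not show how the fit behaves with them. A gene was represented by its brightest kept probe on average. Symbols came from the platform annotation: 30113 probes had 1 symbol, 8 several and 17202 none.

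Samples of 1 replicate number deviated together across probes (r = 0.34, 0.32 and 0.38 on the signal arrays, 0.43, 0.32 and 0.67 in the value table). Pairs of different number ranged from -0.35 to 0.03 and from -0.52 to 0.29. Deviations were taken from the mean of 3 arrays, so positive values for some pairs bring negative ones for others. The numbers were taken to pair the samples in the replicate block only, and the main test did not use the pairing. Where the pairing comes from is not stated in the labels. The members, the lists and the rule for named genes were chosen with earlier results of these data known. The rule names every member, gives array values for up to 4 passing members with the largest change per part and set, and up to 3 passing genes per companion list. Alternatives were other background, scaling, filter and variance settings, mean of probes, the replicate block and leaving out each array.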

Additional observations from a re-analysis of the deposited data

How the results depend on the processing

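Over 15 alternatives of the signal arrays and 13 of the value-table arrays, no called change of a named gene reversed; 1 of the latter, a repeated quantile normalization, left every value as it was and so tests nothing. On the signal arrays the calls of ADRM1, PSMB8, PSMB9, PSMC3, PSMD12 and PSME3 held in every alternative in which they were tested, and 8 of 14 were lost in at least 1; on the value-table arrays those of ADRM1, PSMA5, PSMB8, PSMC3, PSMC4, PSMD1, PSMD14 and PSME3 held and 14 of 22 were lost in at least 1. The falls on the signal arrays numbered 6 without the intensity trend and 17 with the replicate block, the rises 5 with array weights and 6 with the replicate block, and the median change was -0.16 with median scaling. On the value-table arrays the replicate block raised the companion genes past the threshold to 5 rises and 9 falls; the counts of members there stayed within 1.5 times of the main ones under every alternative that kept all arrays. The block gave 15 companion falls on the signal arrays, and beside the calls given with each gene it changed no other call of a member. Leaving out 1 array gave 6 to 9 falls, 2 to 3 rises and a median of -0.13 to -0.11 on the signal arrays, and 7 to 15 falls, 1 to 3 rises and a median of -0.23 to -0.18 on the value-table arrays. For the companion genes it gave 4 to 8 falls and 4 to 5 rises on the signal arrays, and 3 to 4 falls and 0 to 2 rises on the value-table arrays. Over all kept signal probes it gave 1262 to 2009 falls and 1687 to 2334 rises, against 2169 and 2419 in the main fit. Over all kept value-table probes it gave 749 to 1302 falls and 811 to 1192 rises, against 1483 and 1555. Fits that left out an array had fewer samples; the cause of other losses was not tested. Signal over background limits MAFF on the signal arrays, whose levels in 1 group lay near the detection level. PSMB9 lay near the filter level in 1 group on the value-table arrays. That level was carried over from the signals, so detection itself was not measured in the value table.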

Other observations

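ERAP2, an aminopeptidase that trims class I peptides, passed in neither set without the replicate block, and its value-table levels followed the replicate number: they were 12.40, 12.33 and 10.77 with DMSO and 12.28, 12.33 and 10.89 with sorafenib, so replicate 3 was the lowest of both groups. On the signal arrays it stood at 13.20, 12.26 and 12.20 with DMSO and at 12.25, 11.75 and 12.25 with sorafenib, with DMSO replicate 1 the highest (log2 change -0.47, SE 0.24, adjusted p = 0.179, and 0.0170 with the replicate block). The gene was chosen after its values were seen.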
